A study of Drosophila melanogaster with 9 samples.

Results

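This section describes 166 genes of Drosophila melanogaster that were nearly silent in yw, the wild type of the study, and that were expressed in both an L(3)mbt mutant and a Lint-O mutant. The genes were selected on their measured levels in these libraries. A gene was taken when its mean over 3 libraries was at least 1 CPM (its count divided by the library total and scaled to 1000000) in each mutant and under 0.5 CPM in yw. Of 17611 genes in the table, 9205 had a yw mean under 0.5 CPM, and 170 of these met the rule. The genes nanos, BigH1, Pxt, alpha-Catr and Kots were left out by name. The first 4 of them met the rule, and Kots did not, with a Lint-O mutant mean of 0.562 CPM, so 166 genes remained. Among the other genes under 0.5 CPM in yw, 139 reached 1 CPM in the L(3)mbt mutant alone, 10 in the Lint-O mutant alone and 8886 in neither mutant. In the reverse direction, 4 genes had at least 1 CPM in yw and under 0.5 CPM in both mutants.

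The labels give all 9 libraries as poly-A RNA-seq of third-instar larval brain. Eggs were laid at 25 °C, and the larvae were then kept at 29 °C and taken at 5 to 6 days. The study's methods name a temperature-sensitive allele, l(3)mbt ts1, as the L(3)mbt mutant, a CRISPR single-nucleotide deletion as the Lint-O mutant, and y1 w1118 as the background of the Lint-O mutant and as the wild type. The stock of the L(3)mbt mutant is listed there on a w* background, with the allele over the TM6b balancer. In comparisons of the L(3)mbt mutant with either other group, strain and mutation cannot be told apart. In the sample descriptions the columns of the yw libraries carry the name EGFP. The sex of the larvae is not given. The study describes the 3 brain RNA-seq samples of each group as biological replicates, and the labels do not say how many animals went into each library.

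L(3)mbt is a chromatin protein with MBT repeats that helps to keep germline genes off outside the germline. Whether it acts directly on the 166 genes was not tested. Larvae that lack it grow brain tumours in which germline genes are switched on. Lint-O was isolated by the study as a protein bound to L(3)mbt in cultured ovarian somatic cells. Genes that are silent in one cell type and active in another are often tissue-restricted genes of the germline, the sensory organs, cilia or the cuticle, and members of each of these classes were among the 166.

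Total counts ran from 18681293 to 31519287 per library, so that 1 CPM stood for 18.7 to 31.5 counts, and a gene with no count could still be present at up to 0.0952 to 0.161 CPM (3 counts). These reads have no molecular identifiers, so such floors cover counting error only. The mRNA of Lint-O fell by 2.59 on the log2 scale in the Lint-O mutant, and that of l(3)mbt fell by 0.84 in the L(3)mbt mutant. The labelled tissue was set against its defining marker genes, several of which were absent or nearly so. Of the genes that define neural cells, 4 of 7 for neuroblasts (dpn, ase, grh and klu), 4 of 7 for neurons (nSyb, brp, Syt1 and fne) and 2 of 5 for glia (repo and gcm) were under 1 CPM in every library. Other genes of the same lists were above 10 CPM in every library: insc for neuroblasts, elav, Syx1A and cac for neurons, and moody, loco and nrv2 for glia. All 4 ovarian somatic genes (tj, fs(1)Yb, Fas3 and flam) were above 10 CPM in every library, with tj at 403 to 623 CPM. All fat body, imaginal disc and salivary glue genes of the lists were under 1 CPM. The study also made RNA-seq libraries of cultured ovarian somatic cells depleted of L(3)mbt or Lint-O, and names GFP siRNA as their control. With these levels and the EGFP column names, the brain label is in doubt, and the source could not be settled from the files. Groups are therefore called by their labels, and each value below is that of a library so labelled.

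The 166 genes had low to moderate levels. Group means spanned 1.02 to 34.1 CPM in the L(3)mbt mutant (median 3.26), 1.01 to 42.9 CPM in the Lint-O mutant (median 1.96) and 0 to 0.498 CPM in yw (median 0.266). Summed over the 166 genes, the libraries held 974, 992 and 923 CPM in the L(3)mbt mutant, 540, 526 and 501 CPM in the Lint-O mutant, and 46.4, 41.0 and 42.8 CPM in yw. The 3 groups did not overlap in this sum. The yw level was low but rarely zero, with 153 to 157 of the 166 genes having at least 1 count in a given yw library. In a bulk sample, fewer expressing cells and less RNA per cell cannot be told apart.

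These values describe the choice of the genes and not a test of it. By DESeq2 at an adjusted p under 0.01, 164 of the 166 genes were called higher in the L(3)mbt mutant than in yw, where 18.1% of all genes tested were, CG4842 and Pal2 being the exceptions. For the Lint-O mutant the count was 160 over yw, where 13.4% of all genes were, and 11.8% of the genes tested were higher in both mutants. In 165 of the 166 genes every library of both mutants lay above every yw library, the exception being CG13894. The rule itself largely fixes these counts. When every single library, and not the group mean, had to pass its threshold, 90 genes remained.

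The thresholds cut through a continuous range of levels. Just inside the yw limit were CG9265 (yw mean 0.498 CPM), sut3 (0.493 CPM) and CG13894 (0.492 CPM), and just outside it were CG43078 (0.501 CPM), Sans (0.502 CPM) and Mipp1 (0.504 CPM). Sans reached 18.1 CPM in the L(3)mbt mutant and 7.01 CPM in the Lint-O mutant. Just inside the limit of 1 CPM were CG34454, Cyp311a1 and CG34232, each with a Lint-O mutant mean of 1.01 CPM. CG32365, Ca-alpha1T and CG13228 lay just outside it, with a smaller mutant mean of 0.996, 0.992 and 0.991 CPM.

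The difference between the mutants was not used to choose the genes. The rule did set a minimum for each mutant mean, taken from the same libraries. Silent genes short of it in a single mutant were left out: 139 for a low Lint-O mean, 10 for a low L(3)mbt mean. The part of this choice in the values below was not tested. All 166 genes were tested in the direct comparison of the mutants. Of these, 59 (35.5%) were higher in the L(3)mbt mutant than in the Lint-O mutant (DESeq2, adjusted p under 0.01), against 9.22% of all genes tested, and 3 (1.81%) were higher in the Lint-O mutant, against 5.71% of all genes. Of the remaining 104 genes, 73 had a positive log2 fold change of the L(3)mbt mutant over the Lint-O mutant. The median of that log2 fold change was 0.62 over the 166 genes and 0.01 over all genes tested, and the Lint-O mutant level was at the median 64.6% of the L(3)mbt mutant level. A difference of at least 2-fold was called in 49 genes, all of them higher in the L(3)mbt mutant, where 3.07% of all genes tested had one in either direction. In 94 genes all L(3)mbt mutant libraries lay above all Lint-O mutant libraries, and in 7 the order was the reverse, compared with 17.3% and 12.4% of all genes with a count. The genes of the table that were higher in both mutants but did not meet the rule numbered 1049 with a test between the mutants. Of these, 340 (32.4%) were higher in the L(3)mbt mutant against 10 higher in the Lint-O mutant, and their median log2 fold change was 0.23.

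**Figure D1:**
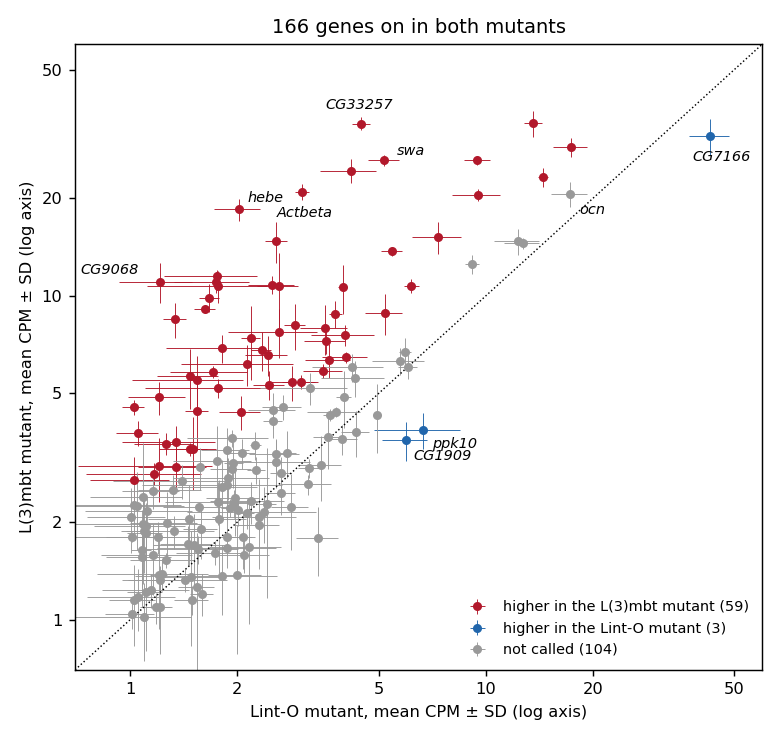
Mean CPM of each of the 166 genes in the L(3)mbt mutant (vertical log axis) and in the Lint-O mutant (horizontal log axis), with SD over 3 libraries as bars and the line of equal levels dotted. Above the line lie the 59 genes called for the L(3)mbt mutant, below it the 3 called for the Lint-O mutant, and 104 genes were not called.

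The gap between the mutants was widest in 5 genes of the list: hebe, CG9068, CG33257, Actbeta and CG15760. hebe had 19.7, 16.8 and 18.9 CPM in the L(3)mbt mutant, 2.05, 1.70 and 2.30 CPM in the Lint-O mutant and 0.183, 0.0493 and 0.190 CPM in yw. Its log2 fold change between the mutants was 3.20 (SE 0.19, DESeq2 adjusted p = 1.93e-58). CG9068 was similar, with 12.1, 11.9 and 9.26 CPM in the L(3)mbt mutant, 1.15, 1.52 and 0.964 CPM in the Lint-O mutant and a single count in the 3 yw libraries together (log2 fold change between the mutants 3.18, SE 0.25, DESeq2 adjusted p = 4.97e-34). In all 5 genes the L(3)mbt mutant libraries stood above every Lint-O mutant library.

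CG33257 had the highest L(3)mbt mutant level per kb of exon among the 166 genes, at 34.3 CPM per kb, against 4.50 CPM per kb in the Lint-O mutant. Its libraries held 33.9, 35.8 and 32.6 CPM in the L(3)mbt mutant, 4.35, 4.29 and 4.76 CPM in the Lint-O mutant and 0.0913, 0.0986 and 0.0317 CPM in yw (log2 fold change between the mutants 2.93, SE 0.14, DESeq2 adjusted p = 7.92e-98). Neither hebe nor CG9068, CG33257 and CG15760 is assigned a function here. CG15760 had 11, 12.0 and 11.5 CPM in the L(3)mbt mutant, 1.45, 1.47 and 2.36 CPM in the Lint-O mutant and 0.320, 0.247 and 0.0635 CPM in yw (2.72, SE 0.23, DESeq2 adjusted p = 2.90e-30).

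Higher levels in the Lint-O mutant than in the L(3)mbt mutant were called for CG7166, ppk10 and CG1909. CG7166 had 28.5, 29.5 and 35.9 CPM in the L(3)mbt mutant, 46.1, 46.0 and 36.5 CPM in the Lint-O mutant and 0.228, 0.296 and 0.159 CPM in yw. The lowest Lint-O mutant library was close to the highest L(3)mbt mutant library (log2 fold change -0.46, SE 0.12, DESeq2 adjusted p = 0.00115). ppk10, which encodes a subunit of the DEG/ENaC sodium channel family, had 3.93, 3.32 and 4.29 CPM in the L(3)mbt mutant, 8.70, 5.25 and 6.00 CPM in the Lint-O mutant and 0.502, 0.247 and 0.0952 CPM in yw (-0.79, SE 0.25, DESeq2 adjusted p = 0.00956). CG1909 on chromosome 4 had 3.97, 3.74 and 3.04 CPM in the L(3)mbt mutant, 5.84, 6.91 and 5.19 CPM in the Lint-O mutant and 0.320, 0.740 and 0.286 CPM in yw (-0.75, SE 0.23, DESeq2 adjusted p = 0.00811). These 3 calls rested on single libraries. None of them was left, a count of 0, without replicate 1 or 2 of the L(3)mbt mutant or without replicate 1 of the Lint-O mutant, and 1 was left without any other mutant library.

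For 65 of the 166 genes a function could be given from general knowledge, and they were placed in 11 groups after their values had been seen. The groups are a description and carry no test of their own. Between the mutants, 35.5% of all 166 genes were called for the L(3)mbt mutant and 1.81% for the Lint-O mutant. Genes of the female germline and oocyte were the one group in which every gene was called between the mutants. All 5 of them were higher in the L(3)mbt mutant than in the Lint-O mutant, where their summed level was 61.9 to 63.0 CPM per library, against 20.5 to 22.8 CPM in the Lint-O mutant and 1.14 to 1.46 CPM in yw.

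**Figure D2:**
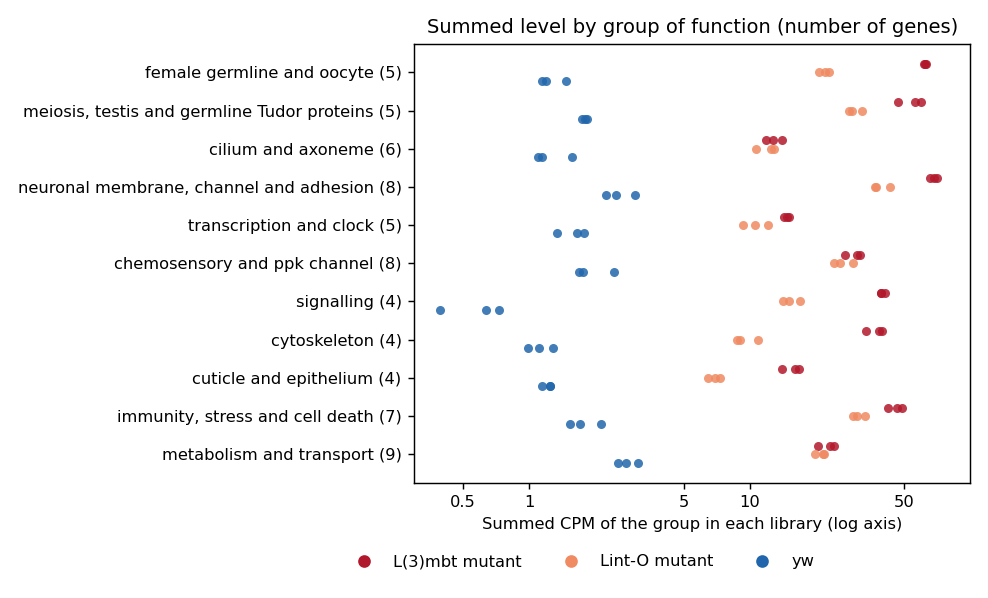
Summed CPM of 11 groups of genes with a known function (number of genes in brackets) in each library, on a log axis, with 1 point per library. The female germline group lies at 61.9 to 63.0 CPM in the L(3)mbt mutant, 20.5 to 22.8 CPM in the Lint-O mutant and 1.14 to 1.46 CPM in yw, while the cilium group holds 11.9 to 14.0 CPM and 10.7 to 12.9 CPM in the mutants.

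swallow (swa) is needed to localise bicoid mRNA in the oocyte. The swa gene had 25.5, 27.3 and 25.8 CPM in the L(3)mbt mutant, 4.61, 5.58 and 5.35 CPM in the Lint-O mutant and 0.228, 0.0493 and 0.317 CPM in yw. The mutants did not overlap (log2 fold change 2.34, SE 0.14, DESeq2 adjusted p = 7.52e-58). gammaTub37C, the maternal gamma-tubulin, had 21.2, 19.6 and 20.7 CPM in the L(3)mbt mutant, 8.19, 9.26 and 11.1 CPM in the Lint-O mutant and 0.274, 0.197 and 0.412 CPM in yw (1.11, SE 0.14, DESeq2 adjusted p = 4.78e-13). gnu encodes an activating subunit of the PNG kinase, which drives the first cell cycles of the embryo. Its levels were 7.70, 6.97 and 8.04 CPM in the L(3)mbt mutant, 4.61, 4.38 and 3.10 CPM in the Lint-O mutant and 0.228, 0.493 and 0.0952 CPM in yw (0.90, SE 0.22, DESeq2 adjusted p = 0.000449).

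orb, a CPEB protein that controls translation in the oocyte, had 4.89, 5.07 and 5.58 CPM in the L(3)mbt mutant, 1.32, 2.53 and 1.45 CPM in the Lint-O mutant and 0.320, 0.395 and 0.508 CPM in yw (1.55, SE 0.28, DESeq2 adjusted p = 1.03e-06). zpg, the innexin of germ cell gap junctions, had 3.65, 2.95 and 2.32 CPM in the L(3)mbt mutant, 1.75, 1.06 and 0.803 CPM in the Lint-O mutant and 0.0913, 0.0493 and 0.127 CPM in yw (1.28, SE 0.37, DESeq2 adjusted p = 0.00378). In both genes all 3 L(3)mbt mutant libraries lay above the Lint-O mutant libraries.

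Genes of meiosis, the testis and germline Tudor proteins were of 2 kinds. CG15930, listed by RefSeq also as Tdrd5l and so a member of the Tudor domain family that acts in germ granules, had 15.1, 16.8 and 12.5 CPM in the L(3)mbt mutant, 2.77, 2.53 and 2.41 CPM in the Lint-O mutant and 0.183, 0.543 and 0.159 CPM in yw (2.51, SE 0.20, DESeq2 adjusted p = 7.86e-34). ocn (ocnus), a testis gene, was at nearly the same level in both mutants, with 21.9, 21.5 and 18.5 CPM in the L(3)mbt mutant, 19.5, 15.9 and 16.3 CPM in the Lint-O mutant and 0.457, 0.444 and 0.571 CPM in yw. The mutants overlapped in ocn and the difference was not called (0.25, SE 0.13, DESeq2 adjusted p = 0.159). Per kb of exon ocn had the highest mean level of the 166 genes over both mutants, at 30.6 CPM per kb.

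solo, which holds sister chromatids together at meiosis, had 8.54, 10.3 and 7.79 CPM in the L(3)mbt mutant, 4.52, 5.71 and 5.35 CPM in the Lint-O mutant and 0.365, 0.247 and 0.0952 CPM in yw (0.76, SE 0.20, DESeq2 adjusted p = 0.000988). It starts at the same base as vas and shares 16.9% of its exon bases with it, and reads in shared exons were not counted. The rest of solo also lies within the span of vas on the same strand. Means of vas were 296 CPM in the L(3)mbt mutant and 141 CPM in the Lint-O mutant. The part of unspliced vas reads in the solo level was not tested. Ntf-2r, a retrogene copy of Ntf-2, had 8.82, 8.77 and 6.36 CPM in the L(3)mbt mutant, 4.14, 3.36 and 3.10 CPM in the Lint-O mutant and 0.365, 0.395 and 0.444 CPM in yw (1.16, SE 0.22, DESeq2 adjusted p = 2.02e-06). Reads of a retrogene can be shared with its parent gene, so its value is uncertain. ACXD, an adenylyl cyclase of the testis, had means of 2.0 CPM in the L(3)mbt mutant, 1.27 CPM in the Lint-O mutant and 0.357 CPM in yw, and was not called between the mutants.

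Further genes of these tissues were read from lists that were drawn up with earlier results of these data known. Of 15 tested genes of a testis and sperm list, 7 were higher than in yw in the L(3)mbt mutant (18.1% of all genes) and 6 in the Lint-O mutant (13.4% of all genes), with none lower. They included tomb (6.36 CPM in the L(3)mbt mutant, 5.41 CPM in the Lint-O mutant and 0.728 CPM in yw), bol (12.3, 12.3 and 5.48 CPM in the same order) and betaTub85D (0.619, 0.507 and 0.0529 CPM). Most genes of this list stayed low, 25 of the 33 in the table being under 1 CPM in every library. Of 28 tested genes of a female germline and egg activation list, 17 were higher in the L(3)mbt mutant (18.1% of all genes) with 2 lower. In the Lint-O mutant 11 were higher (13.4% of all genes) with 1 lower. Among them were vas, exu, bgcn, alphaTub67C and bam, whose yw levels were above the limit of the rule, and plu, which reached 1.31 CPM in the L(3)mbt mutant and 0.744 CPM in the Lint-O mutant against 0.0469 CPM in yw. Only ocn from the first list and swa, gnu, orb and zpg from the second were among the 166 genes. The counts of both lists include these genes, whose rise over yw the rule largely fixed. Of 10 tested eggshell genes none was higher in the L(3)mbt mutant (DESeq2), and 1 of 9 was in the Lint-O mutant. In each of the haemocyte, ring gland, gut enzyme and immune peptide lists, at most 1 gene was higher in either mutant. Only 3, 2, 3 and 5 of their genes were tested, too few to set against the share of all genes. Pxn of the haemocyte list was called for both mutants. The ring gland gene sad was called for L(3)mbt only, the immune peptide gene CecA1 for Lint-O only, and no gut enzyme gene for either.

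**Figure D3:**
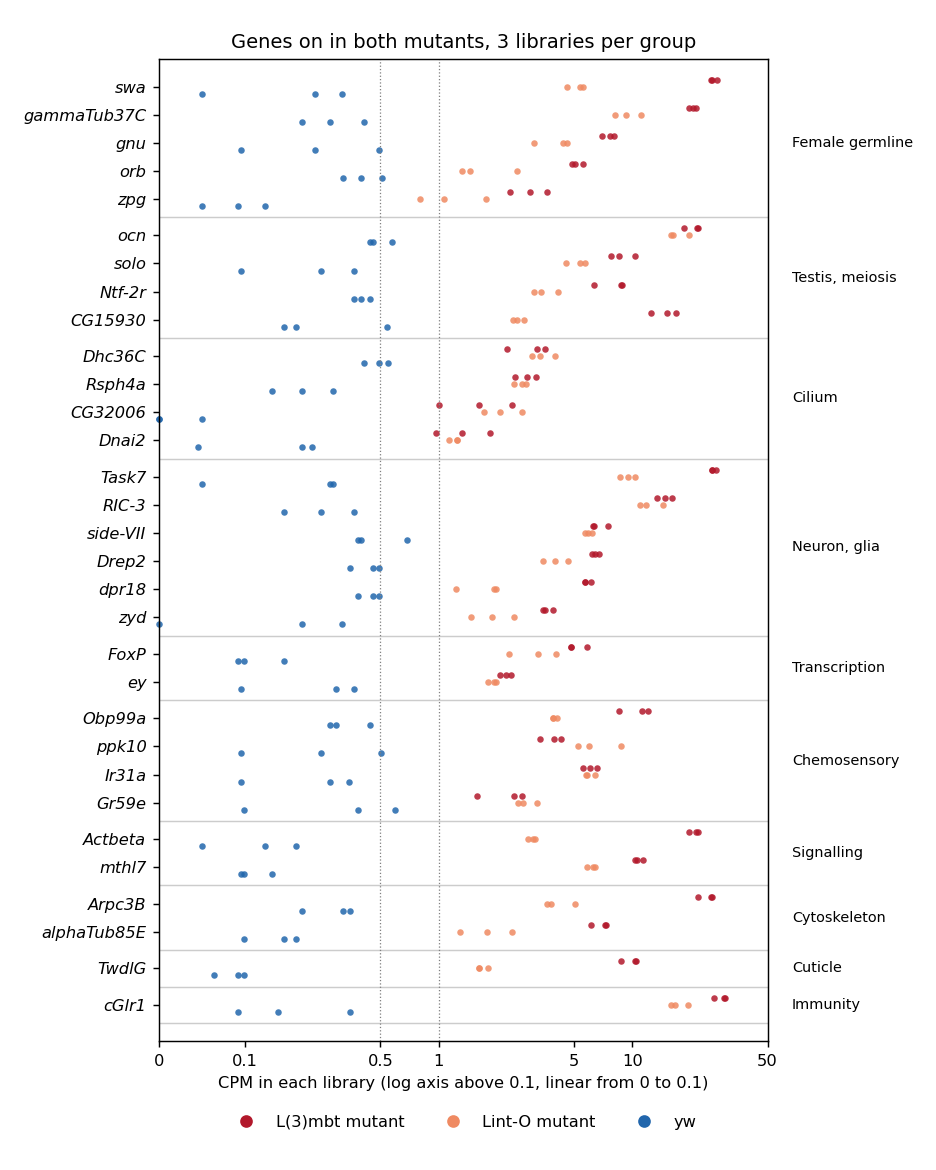
CPM in each library of 31 of the 166 genes with a known function, with 3 points per group (log axis above 0.1 CPM, linear below), and dotted lines at the limits of 0.5 and 1 CPM. All yw points lie left of the mutant points, and the L(3)mbt and Lint-O mutant points are apart in swa, Actbeta and Arpc3B and overlap in ocn, Rsph4a and Ir31a.

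Genes of cilia and axonemes, the microtubule core of sperm tails and sensory cilia, were at similar levels in both mutants. None of the 6 was called between them, and their summed level was 11.9 to 14.0 CPM in the L(3)mbt mutant, 10.7 to 12.9 CPM in the Lint-O mutant and 1.10 to 1.56 CPM in yw. Dhc36C, an axonemal dynein heavy chain, had 2.24, 3.55 and 3.22 CPM in the L(3)mbt mutant, 3.97, 3.04 and 3.32 CPM in the Lint-O mutant and 0.548, 0.493 and 0.412 CPM in yw. Rsph4a, a protein of the radial spokes, had 3.17, 2.86 and 2.47 CPM in the L(3)mbt mutant, 2.69, 2.81 and 2.46 CPM in the Lint-O mutant and 0.137, 0.197 and 0.286 CPM in yw. In both genes the mutants overlapped. CG32006, listed by RefSeq also as FoxJ1, the name of a factor that switches on ciliary genes in vertebrates, had 1.0, 1.61 and 2.40 CPM in the L(3)mbt mutant, 2.69, 2.07 and 1.71 CPM in the Lint-O mutant and 1 count in the yw libraries together. The dynein intermediate chain Dnai2, the intraflagellar transport protein Oseg2 and the Arl3 GTPase dnd had means of 1.38, 2.04 and 1.94 CPM in the L(3)mbt mutant, 1.20, 1.46 and 1.11 CPM in the Lint-O mutant and 0.155, 0.112 and 0.287 CPM in yw.

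Genes known from neurons and glia formed a group of 8, with 65.7 to 70.3 CPM in sum in the L(3)mbt mutant, 36.9 to 42.9 CPM in the Lint-O mutant and 2.22 to 3.01 CPM in yw. Task7, a two-pore potassium channel, had 27.1, 25.8 and 25.7 CPM in the L(3)mbt mutant, 9.47, 10.3 and 8.67 CPM in the Lint-O mutant and 0.274, 0.0493 and 0.286 CPM in yw (1.46, SE 0.13, DESeq2 adjusted p = 3.70e-29). RIC-3, a chaperone of nicotinic acetylcholine receptors, had 16.0, 14.8 and 13.4 CPM in the L(3)mbt mutant, 11, 14.4 and 11.7 CPM in the Lint-O mutant and 0.365, 0.247 and 0.159 CPM in yw. Task7 thus separated the mutants and RIC-3 did not (0.25, SE 0.15, DESeq2 adjusted p = 0.244).

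dpr18, an immunoglobulin protein of the Dpr family of neuronal recognition molecules, was called higher in the L(3)mbt mutant, with 5.69, 6.09 and 5.68 CPM there, 1.92, 1.98 and 1.23 CPM in the Lint-O mutant and 0.457, 0.493 and 0.381 CPM in yw (1.75, SE 0.26, DESeq2 adjusted p = 4.15e-10). Its relative dpr6 did not pass the test, with means of 2.95, 1.57 and 0.114 CPM in the L(3)mbt mutant, the Lint-O mutant and yw. Drep2, a synaptic protein of the DFF family, had means of 6.46 CPM in the L(3)mbt mutant, 4.05 CPM in the Lint-O mutant and 0.433 CPM in yw (0.66, SE 0.21, DESeq2 adjusted p = 0.00901), and its call was lost with the TMM size factors. The exchanger zyd of cortex glia and the GABA transporter Gat were not called between the mutants. The neuronal lists gave a mixed picture beside these genes. Of 7 neuron genes, 4 were under 1 CPM in every library. The list summed to 229 to 278 CPM in the L(3)mbt mutant, 245 to 274 CPM in the Lint-O mutant and 146 to 213 CPM in yw. Means of cac were 140, 140.5 and 49.4 CPM in that order. The means of elav (51.3, 56.9 and 61.4 CPM) and Syx1A (59.3, 63.5 and 71.5 CPM) were highest in yw instead. Syx1A was called lower in the L(3)mbt mutant (log2 fold change over yw -0.32, SE 0.11, DESeq2 adjusted p = 0.00696), and elav in neither mutant. The part of neurons in these levels was not tested.

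Regulators of transcription and the clock were at 1.10 to 5.19 CPM in the L(3)mbt mutant and at 1.21 to 3.20 CPM in the Lint-O mutant, and none of the 5 was called between the mutants. FoxP, a forkhead factor of the nervous system, had 4.85, 4.84 and 5.86 CPM in the L(3)mbt mutant, 3.24, 4.06 and 2.30 CPM in the Lint-O mutant and 0.0913, 0.0986 and 0.159 CPM in yw (0.69, SE 0.25, DESeq2 adjusted p = 0.0331). eyeless (ey), the Pax6 factor of eye development, had 2.08, 2.21 and 2.36 CPM in the L(3)mbt mutant, 1.79, 1.94 and 1.98 CPM in the Lint-O mutant and 0.365, 0.296 and 0.0952 CPM in yw. The libraries of the L(3)mbt mutant lay above those of the Lint-O mutant in both genes, but neither difference passed the test. The BTB factor lov, the zinc finger factor ouib, which activates steroid synthesis in the prothoracic gland, and the clock gene tim were at 2.05, 4.10 and 1.10 CPM in the L(3)mbt mutant, 1.78, 2.51 and 1.21 CPM in the Lint-O mutant and 0.449, 0.391 and 0.376 CPM in yw.

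Chemosensory genes and ppk channels numbered 8, with 1 gene called in each direction between the mutants. Obp99a, an odorant-binding protein, had 11.2, 8.58 and 12.0 CPM in the L(3)mbt mutant, 3.88, 4.10 and 3.91 CPM in the Lint-O mutant and 0.274, 0.296 and 0.444 CPM in yw (1.42, SE 0.20, DESeq2 adjusted p = 3.51e-11). ppk10, as given above, was called higher in the Lint-O mutant, and that call was lost with total counts as size factors. The ionotropic receptor Ir31a had 6.05, 6.55 and 5.54 CPM in the L(3)mbt mutant, 5.80, 6.45 and 5.83 CPM in the Lint-O mutant and 0.274, 0.345 and 0.0952 CPM in yw, with the mutants overlapping. The gustatory receptors Gr59e and Gr59f, the ionotropic receptor Ir60b, the antennal protein a10 and the channel subunit ppk6 were at means of 1.09 to 2.38 CPM in the L(3)mbt mutant and 1.18 to 2.83 CPM in the Lint-O mutant, and none was called.

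Signalling proteins included the ligand Actbeta, an activin of the TGF-beta family, on chromosome 4. It had 19.6, 21.3 and 22 CPM in the L(3)mbt mutant, 3.07, 2.90 and 3.16 CPM in the Lint-O mutant and 0.183, 0.0493 and 0.127 CPM in yw (2.78, SE 0.17, DESeq2 adjusted p = 1.98e-59). mthl7, a receptor of the Methuselah-like family, had 11.3, 10.3 and 10.6 CPM in the L(3)mbt mutant, 6.27, 5.85 and 6.42 CPM in the Lint-O mutant and 0.137, 0.0986 and 0.0952 CPM in yw (0.80, SE 0.17, DESeq2 adjusted p = 2.56e-05). In these genes no library of the Lint-O mutant reached the L(3)mbt mutant range. The related mthl2 (means of 5.60, 4.30 and 0.172 CPM in the L(3)mbt mutant, the Lint-O mutant and yw) was not called. Nor was the guanylyl cyclase Gyc89Da, 85% of whose exon bases lie under exons of the other strand and were not counted.

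Cytoskeletal genes also stood apart in the L(3)mbt mutant, with 3 of 4 called higher there than in the Lint-O mutant. Arpc3B, a subunit of the actin-branching Arp2/3 complex, had 25.7, 25.5 and 22 CPM in the L(3)mbt mutant, 5.03, 3.82 and 3.64 CPM in the Lint-O mutant and 0.320, 0.197 and 0.349 CPM in yw (2.53, SE 0.16, DESeq2 adjusted p = 6.02e-54). The alpha-tubulin gene alphaTub85E had 7.34, 7.24 and 6.11 CPM in the L(3)mbt mutant, 2.39, 1.29 and 1.77 CPM in the Lint-O mutant and 0.183, 0.0986 and 0.159 CPM in yw (1.91, SE 0.26, DESeq2 adjusted p = 1.15e-11). Scgbeta, a sarcoglycan of the muscle membrane, had means of 4.37 CPM in the L(3)mbt mutant, 2.05 CPM in the Lint-O mutant and 0.219 CPM in yw (1.08, SE 0.27, DESeq2 adjusted p = 0.000834). The 5 muscle genes of the lists summed to 74.8 to 79.2 CPM in the L(3)mbt mutant, 50.6 to 57.1 CPM in the Lint-O mutant and 35.4 to 42.1 CPM in yw, with up and Tm2 under 1 CPM in every library, and the part of muscle in the Scgbeta level was not tested.

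TwdlG, a structural protein of the cuticle, had 10.4, 10.5 and 8.76 CPM in the L(3)mbt mutant, 1.79, 1.61 and 1.61 CPM in the Lint-O mutant and 0.0913, 0.0986 and 0.0635 CPM in yw (2.55, SE 0.23, DESeq2 adjusted p = 1.06e-26). The cuticle protein Cpr67B, the yellow family member yellow-f and the junction protein bark were near the same level in both mutants, at 1.15 to 2.32 CPM and 1.03 to 2.19 CPM. Beside TwdlG, the 6 trachea and cuticle genes of the lists summed to 277 to 289 CPM in the L(3)mbt mutant, 54.3 to 58.9 CPM in the Lint-O mutant and 21.6 to 27.1 CPM in yw. Most of that sum was verm, a chitin deacetylase of the trachea, at 253 CPM in the L(3)mbt mutant, 37.2 CPM in the Lint-O mutant and 2.98 CPM in yw, while Cpr49Ae and Cpr64Ad were under 1 CPM in every library. serp and btl were also higher in both mutants. The cuticle gene Cpr62Bc was lower in both, at 1.73 CPM in the L(3)mbt mutant, 5.17 CPM in the Lint-O mutant and 15.8 CPM in yw (log2 fold changes over yw -3.27, SE 0.38, DESeq2 adjusted p = 6.05e-17, and -1.67, SE 0.36, adjusted p = 3.92e-05). The part of tracheal cells in the TwdlG level was not tested.

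Of 7 genes of immunity, stress and cell death, cGlr1 was called between the mutants. It encodes a cGAS-like receptor that senses double-stranded RNA, and it had 30.0, 29.9 and 26.5 CPM in the L(3)mbt mutant, 19.5, 16.7 and 15.8 CPM in the Lint-O mutant and 0.0913, 0.148 and 0.349 CPM in yw (0.72, SE 0.12, DESeq2 adjusted p = 3.36e-08). The other 6 (the caspase Damm, the ninjurin NijC, the small heat shock protein l(2)efl, Traf-like, lectin-33A and the serpin Spn31A) had 1.26 to 4.89 CPM in the L(3)mbt mutant and 1.08 to 3.99 CPM in the Lint-O mutant, and none was called between the mutants. The 9 genes of metabolism and transport had none called either. They included the trehalose synthesis gene Tps1, with means of 6.30 CPM in the L(3)mbt mutant, 5.75 CPM in the Lint-O mutant and 0.420 CPM in yw, and ATPsynbetaL, a paralogue of the ATP synthase beta subunit, with 4.30, 4.94 and 0.372 CPM in the same order.

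The remaining 101 genes were given no function, and 40 of them were higher in the L(3)mbt mutant than in the Lint-O mutant and 2 (CG7166 and CG1909) lower. Among the 10 genes with the highest level per kb of exon were CG9372, listed by RefSeq also as the serine protease SP34, CG9427 and CG30380. CG9372 had 34.4, 37.2 and 30.9 CPM in the L(3)mbt mutant, 13.8, 14.3 and 12.7 CPM in the Lint-O mutant and 0.183, 0.148 and 0.159 CPM in yw (1.32, SE 0.12, DESeq2 adjusted p = 1.00e-27). CG9427 had 23.3, 21.7 and 24.9 CPM in the L(3)mbt mutant, 14.2, 14.3 and 15 CPM in the Lint-O mutant and 0.548, 0.493 and 0.412 CPM in yw (0.68, SE 0.12, DESeq2 adjusted p = 2.78e-07). CG30380 had 11.7, 9.37 and 11.1 CPM in the L(3)mbt mutant, 2.52, 1.29 and 1.50 CPM in the Lint-O mutant and 0.0913, 0.0493 and 0 CPM in yw (2.59, SE 0.25, DESeq2 adjusted p = 1.50e-23). The mutants did not overlap in any of these 3 genes.

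No count at all was found in yw for CG7202 and CG31789. CG7202 had 4.21, 4.48 and 4.47 CPM in the L(3)mbt mutant and 3.67, 3.23 and 4.50 CPM in the Lint-O mutant. Set against a floor of 3 counts per yw library, the L(3)mbt mutant mean was at least 34.6-fold higher, and the Lint-O mutant mean at least 30.0-fold. CG31789 had 0.882, 2.03 and 1.22 CPM in the L(3)mbt mutant and 2.35, 1.66 and 1.98 CPM in the Lint-O mutant, at least 10.9-fold and 15.7-fold above the same floor. A further 10 genes had 1 to 3 counts in the yw libraries together.

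By annotation the 166 genes differed from other silent genes, but the rule bears on this comparison. It asked for 1 CPM in both mutants in poly-A libraries, and CPM is not scaled by gene length. Of the genes under 0.5 CPM in yw, 3742 had no count in any library. The part of the rule in the differences below was not tested. By the Ensembl annotation, 152 (91.6%) were protein-coding, 7 were pseudogenes and 7 were non-coding RNAs, while 64.4% of the other 8999 placed genes under 0.5 CPM in yw and 79.4% of all placed genes were protein-coding. Of the protein-coding ones, 7.89% had a single exon, against 24.9% of the other silent and 15.4% of all protein-coding genes. Their median exon length was 1610 bases, against 1248 and 1736 bases. On chromosome 4, the small and largely heterochromatic chromosome, lay 6 of the 166 genes (3.61%): Actbeta, CG1909, CG32006, Gat, ey and asRNA:CR46065. Of the other silent genes 0.289%, and of all genes 0.638%, lie there. The share on 2R was 24.7% (20.3% and 20.4% of the other silent and of all genes), the share on X was 10.8% (12.5% and 14.9%), and no gene lay on Y. These are counts from the annotation, with no test. A CG or CR number in place of a name was held by 98 of the 166 genes (59.0%).

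Of the 166 genes, 25 (15.1%) had another of them within 20 kb, against 6.52% of the other silent genes that had one of the 166 so near. They formed 11 clusters of 2 or 3 genes. One lies on chromosome 3R of the BDGP6 assembly (dm6 coordinates), where FoxP (9726020 to 9730872), alphaTub85E (9731221 to 9733250) and side-VII (9734012 to 9739979) lie in a row on the minus strand with gaps of 348 and 761 bases. side-VII, an immunoglobulin protein of the Sidestep family, had 6.33, 7.52 and 6.26 CPM in the L(3)mbt mutant, 5.89, 6.17 and 5.73 CPM in the Lint-O mutant and 0.685, 0.395 and 0.381 CPM in yw. The mutants differed by a log2 fold change of 0.17 (SE 0.19, DESeq2 adjusted p = 0.585) for side-VII, whereas alphaTub85E, between it and FoxP, was called. Downstream of the row, the ubiquitin ligase gene hyd was at 310, 390 and 317 CPM in the L(3)mbt mutant, the Lint-O mutant and yw. Against yw, hyd in the L(3)mbt mutant did not pass (log2 fold change -0.09, SE 0.07, DESeq2 adjusted p = 0.281) and in the Lint-O mutant was higher (0.25, SE 0.06, DESeq2 adjusted p = 0.00102).

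A cluster on chromosome 2R held CG34216 (7703506 to 7705095, minus strand), CG1941 (7709873 to 7711981, plus strand) and Dgat2 (7712578 to 7714182, plus strand), the last of which encodes a diacylglycerol acyltransferase of triglyceride synthesis. Between the first pair lies tor, the receptor tyrosine kinase that sets the ends of the embryo, from 7705183 to 7709184 on the minus strand. tor is not one of the 166 genes because its yw mean was 0.602 CPM. It had 26.7, 27.6 and 26.5 CPM in the L(3)mbt mutant, 19.3, 19.2 and 20.6 CPM in the Lint-O mutant and 0.685, 0.740 and 0.381 CPM in yw, and the mutants lay far above yw (log2 fold changes 5.50, SE 0.24, DESeq2 adjusted p = 5.38e-111, and 5.05, SE 0.24, adjusted p = 2.07e-92). CG1941 starts 689 bases from the tor start on the other strand and had 8.22, 8.81 and 6.26 CPM in the L(3)mbt mutant, 3.46, 2.30 and 2.09 CPM in the Lint-O mutant and 0.183, 0.296 and 0.0317 CPM in yw.

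**Figure D4:**
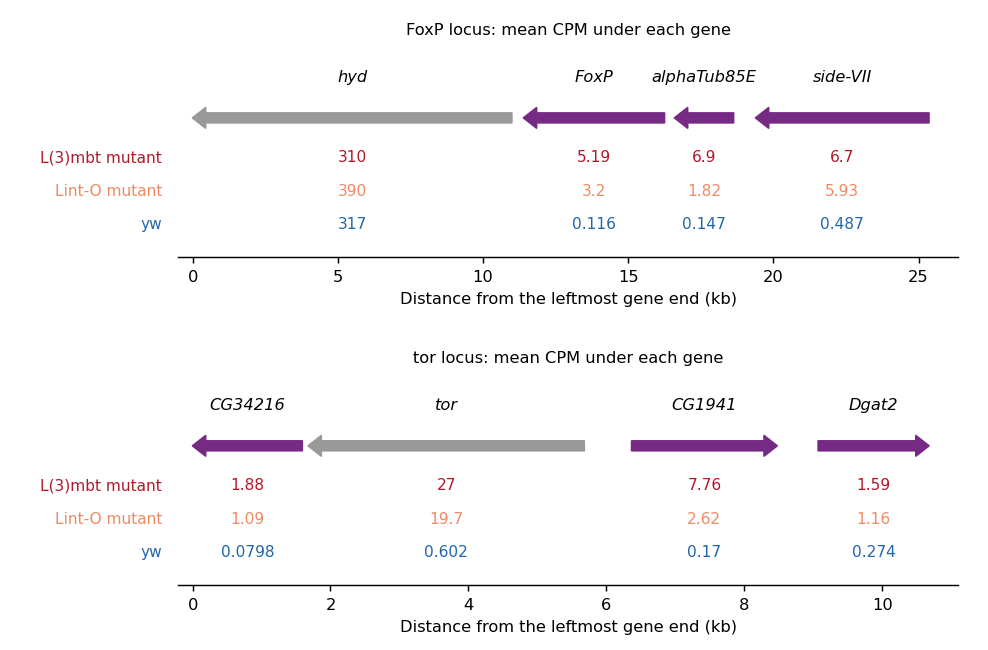
Gene order at 2 clusters, drawn to scale in kb from the leftmost gene end, with arrows in the direction of transcription (purple for the 166 genes, grey for hyd and tor) and the mean CPM of each group printed under each gene. In the upper map FoxP, alphaTub85E and side-VII are under 0.5 CPM in yw beside hyd at 317 CPM, and in the lower map tor is at 27.0 CPM in the L(3)mbt mutant, 19.7 CPM in the Lint-O mutant and 0.602 CPM in yw.

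The other clusters were lncRNA:CR44318 with CG11672 and CG31464 on 3R, Sol1 with Scgbeta on 3R, CG12825 with CG12824, CG13177 with CG34232, Gr59e with Gr59f and l(2)efl with Pal2 on 2R, CG42846 with CG34454 and Oseg2 with ACXD on 3L, and tim with CG8852 on 2L. Gr59e and Gr59f lie back to back at a gap of 130 bases and were at 2.23 and 2.08 CPM in the L(3)mbt mutant, 2.83 and 2.31 CPM in the Lint-O mutant and 0.358 and 0.378 CPM in yw. Neighbours in a cluster could differ between the mutants, as in CG11672 (5.88 CPM in the L(3)mbt mutant, 3.50 CPM in the Lint-O mutant, called) beside CG31464 (3.61 and 3.95 CPM, not called).

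The genome neighbours of the 166 genes were taken as the nearest protein-coding gene on each side that did not meet the rule, so genes silent in yw and on in both mutants are not among them, and some share a start or exons with one of the 166, as vas does with solo. This gave 312 neighbours at a median gap of 349 bases. Against yw, 59 of 264 tested neighbours (22.3%) were higher in the L(3)mbt mutant, where 18.1% of all genes were, and 29 (11%) were lower, where 12.6% of all genes were. In the Lint-O mutant 51 of 260 (19.6%) were higher and 18 (6.92%) lower, where 13.4% and 7.52% of all genes were. Both mutants were compared with the same yw libraries. Each of 78 of the 166 genes had no neighbour called in either mutant, and 48 had one that was higher in both. For these counts no share over other genes was computed.

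The share of neighbours that were higher differed between levels in yw, without a steady trend. Of 83 neighbours under 0.5 CPM in yw, 8 of 35 tested (22.9%) were higher in the L(3)mbt mutant, against 7 of 31 (22.6%) for Lint-O. The share over all protein-coding genes at that level was not computed. Over protein-coding genes of any level outside the rule it was 17.8% and 12.6%. Of 48 neighbours at 0.5 to under 10 CPM in yw, 25 (52.1%) were higher in each mutant, compared with 34.7% of all protein-coding genes at that level for the L(3)mbt mutant and 27.6% for the Lint-O mutant. Of 181 neighbours at 10 CPM or more, 14.4% and 10.5% were higher, compared with 13.5% and 9.24%. Neighbours at 10 CPM or more made up 58.0% of the 312, and 44.5% of all protein-coding genes had that level. A head-to-head arrangement, with starts within 1 kb on opposite strands, was found for 64 neighbours. Of the 58 tested, 11 (19.0%) were higher in each mutant, where 17.8% and 12.6% of all protein-coding genes outside the rule were. In the L(3)mbt mutant 9 (15.5%) were lower, and in the Lint-O mutant 3 (5.17%), where 13.6% and 8.13% of those genes were. Among the partners not called higher were Marf at swa, Cdc16 at orb, Pnn at side-VII and Sou at RIC-3. Cdc16 was lower in both mutants, and Marf was lower in the L(3)mbt mutant (log2 fold change -0.26, SE 0.06, DESeq2 adjusted p = 5.35e-05).

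**Figure D5:**
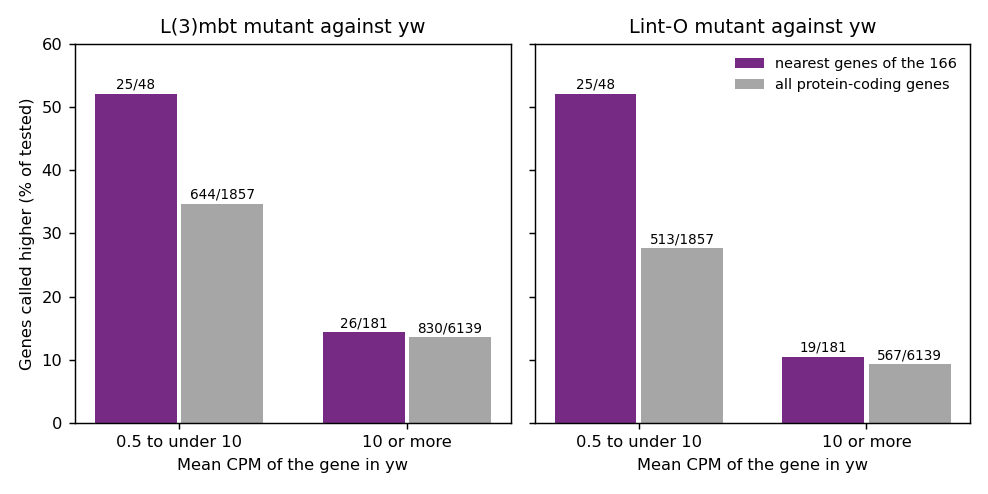
Share of genes called higher than in yw (percent of tested, with the counts above the bars) among the nearest neighbours of the 166 genes and among all protein-coding genes that did not meet the rule, for 2 ranges of the level in yw (0.5 to under 10 CPM and 10 CPM or more, lower levels not shown), for the L(3)mbt mutant and the Lint-O mutant. At 0.5 to under 10 CPM in yw the neighbours stand at 52.1% in both mutants, against 34.7% and 27.6%, and at 10 CPM or more the bars differ by little.

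By the smaller of their 2 fitted fold changes, the neighbours most raised in both mutants were vas, tor, CG30379, Ekar and lush. vas, the germline RNA helicase that shares its start with solo, had 313, 312 and 262 CPM in the L(3)mbt mutant, 143, 141 and 138 CPM in the Lint-O mutant and 1.87, 2.96 and 2.98 CPM in yw, so that the mutants lay above yw by log2 fold changes of 6.75 (SE 0.13) and 5.69 (SE 0.13). Ekar, a kainate-type glutamate receptor whose 3′ end faces that of Gat on chromosome 4 at a gap of 780 bases, had 24.0, 23.1 and 23.4 CPM in the L(3)mbt mutant, 24.9, 24.9 and 23.6 CPM in the Lint-O mutant and 1.46, 0.740 and 0.317 CPM in yw (log2 fold changes over yw 4.79, SE 0.38, DESeq2 adjusted p = 2.43e-35, and 4.86, SE 0.38, adjusted p = 5.54e-36). Gat beside it had means of 1.58 CPM in the L(3)mbt mutant, 2.09 CPM in the Lint-O mutant and 0.459 CPM in yw.

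CG30379, head to head with CG30380 at a gap of 296 bases, had 1.48, 1.11 and 0.536 CPM in the L(3)mbt mutant, 0.128, 0.276 and 0.268 CPM in the Lint-O mutant and no count in yw. lush, an odorant-binding protein that starts 118 bases from CG9372, had 0.521, 0.369 and 0.393 CPM in the L(3)mbt mutant, 0.0853, 0.184 and 0.375 CPM in the Lint-O mutant and no count in yw. Against 3 counts per yw library, the L(3)mbt mutant means were at least 8.23-fold and 3.38-fold higher for CG30379 and lush and the Lint-O mutant means at least 1.77-fold and 1.70-fold higher. The calls for CG30379 and lush in the Lint-O mutant (DESeq2 adjusted p = 0.00234 and 0.00532) were lost without any single yw library. Further neighbours higher in both included aub, the Piwi protein of the ping-pong cycle, at 116, 103 and 106 CPM in the L(3)mbt mutant, 97.5, 113 and 103 CPM in the Lint-O mutant and 10.4, 10.8 and 11.6 CPM in yw. It lies head to head with lectin-33A, which had 1.26 CPM in the L(3)mbt mutant, 1.54 CPM in the Lint-O mutant and 0.331 CPM in yw. aub was named after its values were seen.

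Neighbours that were lower in both mutants numbered 14, and their changes were small. The share of all genes lower in both mutants was not computed. vig, which lies within vas and overlaps solo on the other strand, had 364, 386 and 365 CPM in the L(3)mbt mutant, 491, 497 and 467 CPM in the Lint-O mutant and 691, 681 and 546 CPM in yw (log2 fold changes -0.84, SE 0.07, DESeq2 adjusted p = 2.79e-29, and -0.45, SE 0.07, adjusted p = 9.82e-09). Ip259 beside Ir31a had 401, 401 and 368 CPM in the L(3)mbt mutant, 411, 405 and 384 CPM in the Lint-O mutant and 510, 501 and 509 CPM in yw. The next were Sas10 at CG15930, ZIPIC at ocn and Nap1 at CG13562, with log2 fold changes of -0.37, -0.34 and -0.35 in the L(3)mbt mutant, against values of -0.44, -0.41 and -0.32 for Lint-O. Without replicate 1 or 3 of the L(3)mbt mutant, or 2 or 3 of yw, ZIPIC was no longer called for L(3)mbt, and without Lint-O mutant replicate 2 neither ZIPIC nor Nap1 was called for Lint-O. Sas10 and CG15930 start 114 bases apart on opposite strands. Sas10 was at 57.2 CPM in the L(3)mbt mutant, 54.3 CPM in the Lint-O mutant and 71.3 CPM in yw.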

How the data were processed

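The deposited table holds raw read counts per gene for the 9 libraries, with no normalization or pooling by the authors. The submitters' processing notes name dm6, HISAT2 and featureCounts, with versions not given in the sources used here. Of 73 genes lying over 99% under exons of the other strand only, all 73 had no count, so reads in shared exons were left out whatever the strand, and levels per kb use unshared exon bases. CPM was computed from library totals. Positions come from Ensembl's BDGP6 annotation. DESeq2 1.42.0 in R 4.3.3 was run over all 9 libraries with 1 coefficient per group, a two-sided Wald test, independent filtering at 0.01 and Benjamini-Hochberg adjustment over all genes. edgeR 4.0.16 was an alternative. The code was tested on simulated data. No pair of replicates was within counting noise, and each was kept.

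The 166 genes, the marker and function lists and the contrasts were chosen with earlier results of these data known. Named genes were the 10 highest per kb over both mutants, the 5 largest differences each way between the mutants, genes on the lists, genes without yw counts, genes nearest the limits, clustered genes, genes with a known function, and the 5 most changed neighbours each way. All 9 columns were assigned. The list symbols rye and phm were not found. Promoter sequences were not analysed here.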

Additional observations from a re-analysis of the deposited data

Results flagged for a closer look

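The mutants differed in part of the 166 genes by the test of that difference itself: 59 were higher in the L(3)mbt mutant than in the Lint-O mutant, and 3 lower (DESeq2, adjusted p under 0.01 over all genes). The first count was 35.5% of the genes, against 9.22% of all genes tested, and the second 1.81%, against 5.71%. The split was not particular to the 166 genes: of the other genes higher in both mutants, 32.4% were higher in the L(3)mbt mutant than in the Lint-O mutant and 0.953% lower. The rule drew on the levels of both mutants, and its part in the split was not tested. No further result was tested for outlying samples, since each group has 3 libraries.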

How the results depend on the processing

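The number of genes meeting the rule was 156 with TMM factors and 159 with DESeq2 size factors, against 166 with library totals, and 163 to 176 when a library was left out. It was 90 when every library had to pass, 75 with a yw limit of 0.25 CPM and 76 with a mutant limit of 2 CPM. Of the 166, 47 to 63 were higher in the L(3)mbt mutant than in the Lint-O mutant under all alternatives, leaving out a library included. The 3 genes higher in the Lint-O mutant became 1 without independent filtering, 1 with a replicate block, 0 with a minimum of 2-fold, and 0 to 3 when a library was left out. Among the neighbours, 18 lower in the Lint-O mutant became 10 with total counts as size factors and 10 to 18 when a library was left out. Taking every protein-coding gene within 10 kb gave 147 of 783 tested higher (18.8%) and 101 lower (12.9%) for L(3)mbt. Of all protein-coding genes outside the rule, 17.8% and 13.6% were. For Lint-O it gave 121 of 772 higher (15.7%) and 55 lower (7.12%), against 12.6% and 8.13%. Listed genes lower than in yw numbered 9 in the L(3)mbt mutant (5 to 11 when a library was left out) and 3 for Lint-O (1 with total counts as size factors, 1 to 6 when a library was left out). The replicate numbers do not pair the libraries: same-numbered deviations correlated at -0.167 to 0.116. With the replicate block, the 59 became 47, and cGlr1 lost its call (DESeq2 adjusted p = 0.135). For 36 fold changes of single genes, 531 of 570 alternatives kept the call and 39 lost it, with no change of direction. At 18.7 to 31.5 counts per CPM, levels near the limits rest on few counts.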
